A study of Mus musculus with 6 samples.

Results

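The odorant receptor (OR) genes of a single cluster on chromosome 10, numbered Olfr763 to Olfr827, were examined in mice with and without the chaperones RTP1 and RTP2. A gene was counted as a member when its whole name was Olfr followed by a number in this range. The rule used no expression value and gave 56 of the 24661 genes in the files, of which 55 were intact ORs out of 1086 in all. RNA-Seq had been carried out on olfactory tissue of 3 wild-type mice and 3 mice homozygous for null alleles of both Rtp1 and Rtp2 (RTP1,2DKO), to survey how gene expression changes when these chaperones are missing. All of the mice were given as C57BL/6 and 21 days old. The methods describe them as littermates of both sexes, matched for sex. According to the methods, the null alleles were made in embryonic stem cells of a hybrid strain and kept by backcrossing with C57BL/6. The labels name the olfactory epithelium, whereas the methods describe the whole olfactory mucosa, so neurons, supporting cells, glands and blood were sequenced together. The null alleles are carried in every cell from conception, and no other age or inducible deletion is part of these data.

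ORs are the seven-transmembrane receptors with which olfactory sensory neurons (OSNs) detect odorants, and each mature OSN transcribes a single OR allele out of the whole family. OR genes lie in clusters of tandem copies, so neighbours are often close relatives in sequence. RTP1 and RTP2 are small transmembrane proteins that help ORs to leave the endoplasmic reticulum and to reach the surface of the neuron. The chromosome 10 ORs are named here by their gene numbers alone.

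The 56 genes spanned chr10:129010791-130214403 (GRCm38), with 24 on the plus strand and 32 on the minus strand. Their coding sequences were 924 to 984 bases long, and the 1540 pairs among them were 56.9% to 99.3% identical, with a median of 68.8%. Coding stretches are printed for 4 pairs of relatives, because some relatives shared their change in RTP1,2DKO and others did not. Each stretch is the window of 120 bases, free of gaps, in which the pair differed most, written 5′ to 3′ on the coding strand with the differing bases in capitals. The letters come from the GENCODE M21 transcripts.

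Olfr781 and Olfr799 were 94.86% identical over their coding sequences and both were overrepresented in RTP1,2DKO. Their stretches, with 11 differing bases, lie at chr10:129333120-129333239 on the plus strand and at chr10:129647367-129647486 on the plus strand.
Olfr781: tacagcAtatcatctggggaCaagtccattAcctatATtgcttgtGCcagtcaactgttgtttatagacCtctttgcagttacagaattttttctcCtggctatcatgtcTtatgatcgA
Olfr799: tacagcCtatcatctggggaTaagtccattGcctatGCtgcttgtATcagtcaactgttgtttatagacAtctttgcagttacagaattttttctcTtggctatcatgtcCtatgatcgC

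Olfr792 and Olfr798 were 95.07% identical and were called in opposite directions among ORs. Their stretches end just before the last codons of both genes, differ at 11 bases and lie at chr10:129541346-129541465 on the plus strand and at chr10:129625133-129625252 on the minus strand.
Olfr792: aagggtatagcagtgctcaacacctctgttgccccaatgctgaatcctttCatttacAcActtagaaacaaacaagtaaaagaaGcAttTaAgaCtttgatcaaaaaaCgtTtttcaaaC
Olfr798: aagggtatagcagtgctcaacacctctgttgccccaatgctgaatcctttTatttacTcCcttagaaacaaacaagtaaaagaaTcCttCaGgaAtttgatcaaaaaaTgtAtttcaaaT

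Olfr774 and Olfr787 were 92.45% identical and were also called in opposite directions among ORs, although the call of Olfr774 depended on the scale. Their stretches differ at 20 bases and lie at chr10:129238558-129238677 on the plus strand and at chr10:129463085-129463204 on the plus strand.
Olfr774: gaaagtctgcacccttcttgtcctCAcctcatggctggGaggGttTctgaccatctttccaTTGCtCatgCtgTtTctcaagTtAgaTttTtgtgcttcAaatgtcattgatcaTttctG
Olfr787: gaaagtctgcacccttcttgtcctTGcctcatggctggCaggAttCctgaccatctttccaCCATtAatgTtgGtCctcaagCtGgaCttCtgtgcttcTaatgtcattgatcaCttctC

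Olfr764 and Olfr766 were 98.98% identical, and Olfr764 had the largest decrease in the cluster. Even the window in which they differed most held 5 differing bases, at chr10:129033974-129034093 on the minus strand and at chr10:129063142-129063261 on the minus strand.
Olfr764: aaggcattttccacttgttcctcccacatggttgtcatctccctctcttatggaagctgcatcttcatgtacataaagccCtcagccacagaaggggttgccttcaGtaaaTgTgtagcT
Olfr766: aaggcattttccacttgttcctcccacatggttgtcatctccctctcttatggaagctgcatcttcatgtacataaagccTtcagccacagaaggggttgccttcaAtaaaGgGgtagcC

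Stretches this alike bear on how far reads can be assigned to a single gene. The percentage of 31-base words in a gene that occur in no other annotated gene ranged from 11.23% to 100% across the cluster. It was 100% for Olfr790, 89.52% for Olfr798, 89.33% for Olfr787, 85.07% for Olfr792, 55.83% for Olfr774 and 52.75% for Olfr764. For 13 of the genes it was at least 95%.

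Total estimated counts per mouse lay between 31125410 and 41636996, of which intact ORs took 0.7202% to 1.124%. Rtp1 had 19839, 26518 and 12283 counts in the wild-type mice and 86, 98 and 111 in RTP1,2DKO, and Rtp2 had 8214, 9968 and 6491 against 55, 30 and 52, so the genotypes matched their labels. Of 10 mature OSN markers, 9 fell and none rose, with summed normalized counts of 169064 to 194542 in wild-type and 86413 to 93961 in RTP1,2DKO. Of 6 immature OSN markers 2 rose and 1 fell, of 5 sustentacular markers 1 fell, and of 4 blood genes 1 rose, the blood sum being 57299 to 93498 against 91473 to 167980. No marker of globose basal cells (0 of 5), horizontal basal cells (0 of 4), Bowman glands (0 of 4), respiratory cells (0 of 4) or macrophages (0 of 3) passed edgeR's quasi-likelihood test or DESeq2, although 4 of the globose basal markers and 1 of the respiratory ones had an unadjusted p under 0.05. All of these markers were detected, and the part of these shifts in the OR results was not tested. Fewer neurons that express an OR and less of its RNA in each neuron cannot be told apart in bulk tissue.

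The cluster as a whole held 10222 to 14740 estimated counts per mouse, and the median cluster gene had 79.98 to 172.1. These totals made up 3.994%, 3.938% and 3.729% of the counts on intact ORs in wild-type mice and 3.71%, 4.042% and 3.284% in RTP1,2DKO. The ranges overlapped, with means of 3.89% ± 0.140 (SD, n = 3) and 3.68% ± 0.380 (SD, n = 3). The difference of -0.208 percentage points became 0.165 when Olfr907, an OR outside the cluster, was left out of the denominator, and leaving out single mice gave -0.389 to -0.0106. The SD of the RTP1,2DKO mice was larger than the difference of -0.208 in size, and that of the wild-type mice was smaller.

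Expression per length was compared in FPKM, which divides the counts by the effective transcript length and the depth. In the wild-type mice the highest levels were those of Olfr808, with 19.9, 27.6 and 14.1 FPKM, and Olfr812, with 13.4, 14.3 and 13.9. Olfr774 followed with 15.2, 12.6 and 10.7, Olfr794 with 9.38, 15.2 and 9.81, and Olfr820 with 8.32, 16.2 and 8.02. None of these could be separated from the next in the order, since 54 of the 56 genes overlapped their lower neighbour in wild-type FPKM.

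At the low end, Olfr822 lay at 1.24, 0.390 and 0.662 FPKM and Olfr814 at 0.670, 0.979 and 0.572. Olfr773 had no count in any wild-type mouse and about 3 in a single RTP1,2DKO mouse, so no fold change is given for it. It is 99.25% identical to Olfr772, and only 14.46% of its words were unique, so its absence at the level of assigned reads is uncertain. FPKM also depends on how counts were divided between transcripts of different length. Olfr779, which the annotation types as a polymorphic pseudogene, reached 4.74 FPKM from no more than 10.8 counts in any mouse.

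In RTP1,2DKO the highest means were those of Olfr812, with 18.5, 22.8 and 18.0 FPKM, and Olfr794, with 19.6, 20.1 and 17.7, in both cases above all wild-type values of the gene. These and Olfr808, with 17.2, 19.5 and 19.0, overlapped each other, so their order is not separated. Olfr799 rose from 5.34, 8.21 and 5.33 to 17.9, 15.0 and 12.8 FPKM and moved to place 4, next to Olfr800 at place 5. Olfr819 went the other way, from place 6 in wild-type to place 29. The plot of FPKM by gene shows these shifts.

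**Figure D1:**
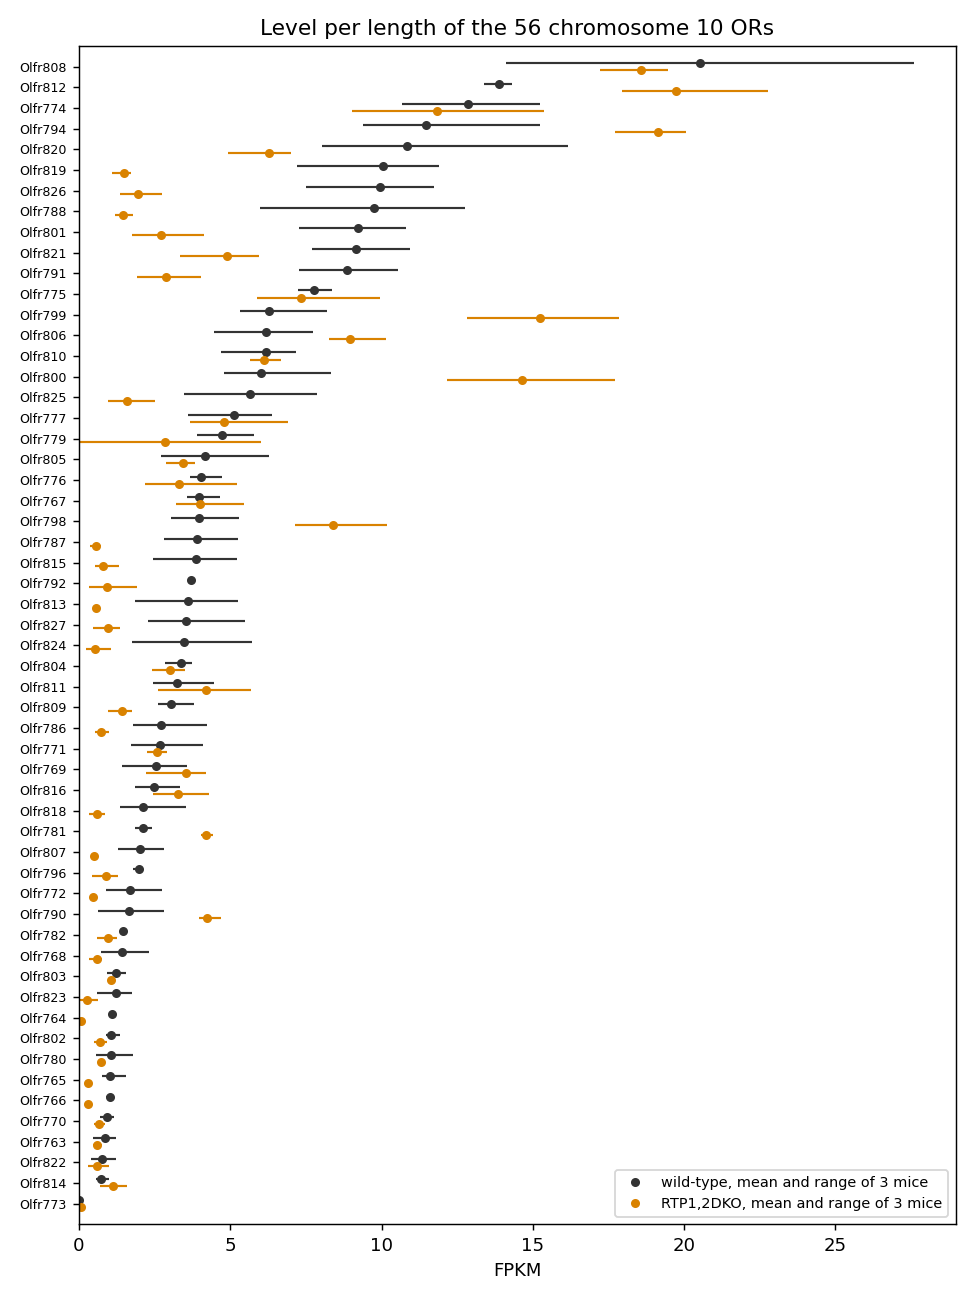
Expression per length (FPKM, horizontal axis) of the 56 chromosome 10 ORs, ordered by wild-type mean, with points for the mean and lines from the lowest to the highest of 3 mice in each group. Olfr812, Olfr794, Olfr799 and Olfr800 in RTP1,2DKO lie right of their wild-type ranges, while Olfr819 falls from a mean of 10.1 to 1.50 FPKM.

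Relative to all genes, 19 of the 56 cluster genes fell in RTP1,2DKO, 3 rose and 34 were not called (edgeR's quasi-likelihood test with Benjamini-Hochberg adjustment over 22152 genes), against backgrounds of 3.15% of all genes lower and 0.46% higher. Among intact ORs alone the same fit called 38.3% lower and 4.36% higher, and the 33.9% and 5.36% of the cluster lay near those shares. The median log2 fold change of the cluster genes was -0.645 (-0.655 without Olfr773), that of all intact ORs -1.08 and that of all genes 0.0164. The change was negative for 39 genes and positive for 17. The groups did not overlap for 27 genes that were lower in all RTP1,2DKO mice (9.24% of all genes) and for 10 that were higher (7.2%). The shares among intact ORs alone, which fell broadly on this scale, were not computed for this count.

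The 3 genes that rose on this scale were Olfr790 by 1.41 ± 0.32 (log2, SE, adjusted p = 0.028), Olfr799 by 1.34 ± 0.19 (adjusted p = 0.001) and Olfr800 by 1.18 ± 0.17 (adjusted p = 0.0014). Olfr799 and Olfr800 stayed past the threshold whichever mouse was left out. With the most abundant transcript only, none of the 3 did, at 0.91 (adjusted p = 0.73), 0.38 (0.83) and 1.21 (0.3). Olfr790 did not, reaching an adjusted p of 0.08 without RTP1,2DKO replicate 3, 0.065 without wild-type replicate 1 and 0.056 without RTP1,2DKO replicate 1. With the replicate number as a block 5 genes rose (0.885% of all genes) and 20 fell (3.68%), Olfr769 (adjusted p = 0.025) and Olfr794 (adjusted p = 0.011) joining the higher ones. Under the block Olfr820 (adjusted p = 0.024) and Olfr825 (adjusted p = 0.035) joined the lower ones and Olfr815 left them (adjusted p = 0.058).

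The largest falls on this scale were those of Olfr764, by 4.21 ± 0.68, and Olfr819, by 2.68 ± 0.19. Of the 19 genes that fell, 14 did so in each of the 6 fits without a mouse. Olfr768, Olfr792, Olfr807, Olfr815 and Olfr818 each lost the call in at least 1 of these fits. Their adjusted p-values with all mice lay between 0.016 and 0.047. On simulated data the fit over all genes made more false calls than the adjustment allows, which limits all calls made relative to all genes.

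ORs were next compared with each other, after normalization by the counts on intact ORs. On this scale, with size factors from the median intact OR, 22 of the 55 intact cluster genes were overrepresented in RTP1,2DKO, beside 29.1% of all 1078 intact ORs tested, and 9 were underrepresented, beside 25.9%. These are 40% and 16.4% of the cluster. The median log2 fold change was 0.348 in the cluster (0.347 without Olfr773) and -0.115 over all intact ORs. The groups did not overlap for 22 cluster genes that were higher (30.9% of intact ORs) and 12 that were lower (29.5%).

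The split between the directions depended on the scale. When the libraries were instead brought to equal totals over intact ORs, the median log2 fold change of ORs shifted by -0.781. It was then -0.426 in the cluster and -0.895 over all intact ORs. On that scale 10 cluster genes were higher and 22 lower, beside 16.4% and 47.9% of intact ORs. The 10 higher ones were Olfr769, Olfr781, Olfr790, Olfr794, Olfr798, Olfr799, Olfr800, Olfr806, Olfr810 and Olfr812, all of them higher on both OR scales. All 9 genes that were lower with the median scale were lower with the total as well, and all 9 were also among the 19 that fell relative to all genes. The 10 higher genes were picked by their calls on both OR scales, and the total moved ORs downward, so these directions are no further support.

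The other 12 overrepresented genes were not called higher with the total. Their log2 fold changes then ran from -0.0506 (Olfr804) to 0.585 (Olfr811), and only those of Olfr777 and Olfr804 were negative. With the most abundant transcript of each gene only, 6 cluster genes were higher and 6 lower, beside 12% and 10.2% of intact ORs, so the excess of higher calls was absent there. Of the 22 higher genes Olfr775, Olfr781, Olfr794, Olfr800, Olfr806 and Olfr812 stayed past the threshold in that fit, and of the 9 lower ones Olfr764, Olfr788, Olfr813, Olfr819 and Olfr826 did. Beside all genes, 3 of the 22 overrepresented genes rose and 19 were not called, and none fell. A further 10 genes fell relative to all genes without being called among ORs, and 14 were called in neither comparison.

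Among the overrepresented genes, Olfr790 had the largest increase. Its OR-normalized counts were 71.3, 94.2 and 36.3 in wild-type mice and 303.2, 381.9 and 419.2 in RTP1,2DKO, so the lowest mutant value lay above the highest wild-type value. The log2 fold change was 2.43 ± 0.27 (SE, adjusted p = 4.6e-10). All of its words of 31 bases were unique to it among annotated genes. With its most abundant transcript alone the change was 1.68 (adjusted p = 0.069).

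Olfr799 had 96.5, 120.7 and 109.7 OR-normalized counts in wild-type and 508.0, 596.5 and 535.8 in RTP1,2DKO (log2 fold change 2.32 ± 0.23, adjusted p = 8.2e-11). Olfr800, its neighbour, had 111.8, 119.4 and 138.7 against 531.1, 612.6 and 501.3 (2.15 ± 0.23, adjusted p = 4.2e-10). The groups of both genes were far apart. With the most abundant transcript alone Olfr799 was at 1.03 (adjusted p = 0.08) and Olfr800 at 1.93 (adjusted p = 0.011). Olfr781 was much lower than these, with 22.8, 19.2 and 20.8 against 85.4, 102.6 and 98.6 (2.20 ± 0.34, adjusted p = 3.3e-07), and its groups did not overlap either.

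Olfr794, among the genes with the highest FPKM in RTP1,2DKO, was overrepresented as well. Its OR-normalized counts were 373.7, 511.7 and 376.9 in wild-type mice and 1135.6, 1573.6 and 1320.8 in RTP1,2DKO (1.67 ± 0.23, adjusted p = 1.8e-08). Within each mouse, its share of all counts on the cluster was 4.14%, 5.86% and 4.16% in wild-type and 8.26%, 10.2% and 9.12% in RTP1,2DKO. Olfr810 had shares of 4.13%, 4.62% and 4.31% against 6.25%, 6.82% and 8.68% and OR-normalized counts of 373.2, 403.5 and 390.6 against 858.2, 1049.2 and 1256.6 (1.44 ± 0.22, adjusted p = 2.5e-07). Its mean FPKM, however, was 6.17 in wild-type and 6.10 in RTP1,2DKO, and with its most abundant transcript alone the change among ORs was 0.60 (adjusted p = 0.26).

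The remaining genes among the 10 with the largest increase were Olfr798 (1.68), Olfr769 (1.67), Olfr806 (1.58) and Olfr812 (1.58), with adjusted p-values of 1.2e-07 or lower and no overlap between groups. Olfr806 was the tightest of them, with 111.5, 102.9 and 110.7 OR-normalized counts against 311.5, 321.7 and 342.0. Of the genes with the highest wild-type FPKM, Olfr808 and Olfr774 were overrepresented more weakly, by 1.08 ± 0.22 (adjusted p = 3.1e-05) and 0.86 ± 0.22 (adjusted p = 0.00095). With the OR total neither was called, at 0.30 and 0.07. Olfr820, another of these, was not called, with a log2 fold change of 0.35 ± 0.22 (adjusted p = 0.17) and overlapping groups. The same was true of the scarce Olfr822, at 0.73 ± 0.74 (adjusted p = 0.41).

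The plot of OR-normalized counts by mouse shows the named genes in both directions. Of the 22 overrepresented genes, 21 kept the call in all 6 fits without a mouse. Olfr777 did not, and the fit that lost it left out RTP1,2DKO replicate 1.

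**Figure D2:**
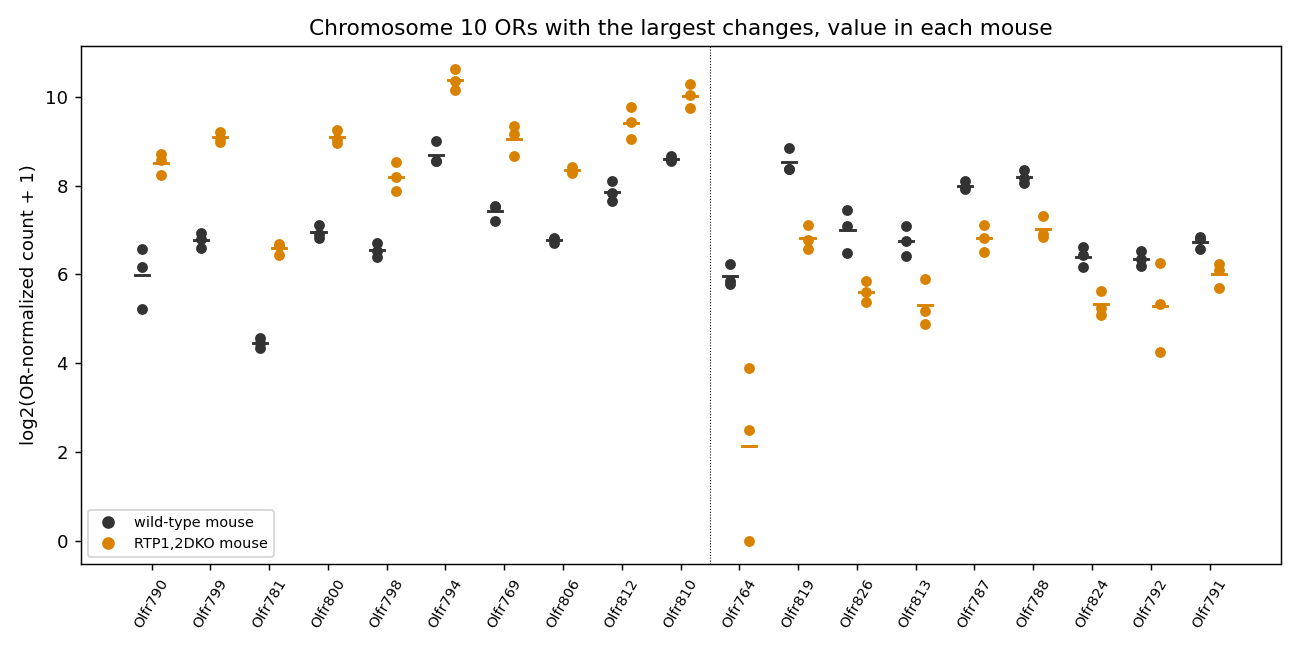
OR-normalized counts in each mouse, as log2(count + 1), of the 10 most overrepresented and all 9 underrepresented chromosome 10 ORs, with horizontal bars for the mean of 3 mice. The groups are separate for all genes but Olfr792, whose highest RTP1,2DKO mouse (75.0) lies above the lowest wild-type mouse (71.9).

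Of the underrepresented genes, Olfr764 fell the most. It had 78.2, 90.8 and 86.1 estimated counts in wild-type mice and 10.8, 0 and 3.2 in RTP1,2DKO, with a log2 fold change of -3.29 ± 0.55 (adjusted p = 1.5e-06). The mutant counts are so few that the size of the fold is poorly fixed, and it ran from -4.84 to -2.68 when each mouse was left out. Its near-identical relative Olfr766 had 70.8, 85.3 and 87.9 counts against 18.2, 34.0 and 28.8, and was not called among ORs (-0.72 ± 0.37, adjusted p = 0.088). Because the pair shares most of its sequence, as printed above, the division of reads between them is uncertain, although both had fewer counts in every mutant mouse.

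Olfr819 was the clearest decrease among well expressed genes. Its OR-normalized counts were 331.4, 333.0 and 462.0 in wild-type mice and 108.6, 138.5 and 94.9 in RTP1,2DKO (-1.72 ± 0.24, adjusted p = 4.9e-08). Its share of the counts on the cluster was 3.67%, 3.81% and 5.1% in wild-type and 0.79%, 0.9% and 0.655% in RTP1,2DKO. The groups were far apart on either measure. Of the 31-base words of Olfr819, 61.87% occurred in no other annotated gene, so the assignment of part of its reads is uncertain.

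Olfr788, with 326.7, 266.3 and 286.8 against 119.6, 114.6 and 158.2 (-1.16 ± 0.24, adjusted p = 4.6e-05), and Olfr787, with 275.8, 250.9 and 241.9 against 112.5, 138.7 and 90.6 (-1.17 ± 0.24, adjusted p = 6.3e-05), are consecutive genes that fell by similar amounts. Olfr826 (-1.44), Olfr813 (-1.41) and Olfr824 (-1.10) also fell without overlap between groups. Olfr824 and Olfr823 are 98.84% identical, and the latter had at most 23.5 counts in any mouse.

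The weakest of the 9 decreases were those of Olfr791 (-0.72 ± 0.28, adjusted p = 0.026) and Olfr792 (-0.88 ± 0.35, adjusted p = 0.027). Olfr791 had 113.6, 94.8 and 110.6 OR-normalized counts against 74.8, 67.2 and 51.0, without overlap, and the call was lost without RTP1,2DKO replicate 3 (adjusted p = 0.13), wild-type replicate 1 (0.095) or wild-type replicate 3 (0.068). Olfr792 had 71.9, 80.2 and 90.7 against 18.2, 39.2 and 75.0, which overlap, and the call was lost without RTP1,2DKO replicate 1 (adjusted p = 0.23), RTP1,2DKO replicate 2 (0.056) or wild-type replicate 3 (0.11). The other 7 decreases held in all 6 fits without a mouse. With the replicate number as a block 22 genes were higher (29.4% of intact ORs) and 13 lower (27.2%), Olfr772 (adjusted p = 0.047), Olfr786 (0.02), Olfr801 (0.027) and Olfr827 (0.027) being added.

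The numbers of overrepresented and underrepresented genes differed along the cluster. Of 4 runs of 14 consecutive genes, the run from Olfr799 to Olfr812 held 10 of the 22 overrepresented genes and none of the underrepresented ones, with a median log2 fold change of 1.01. The adjoining run from Olfr813 to Olfr827 held 2 overrepresented and 4 underrepresented genes, with a median of -0.546. The run from Olfr763 to Olfr776 held 5 and 1 (median 0.281), and that from Olfr777 to Olfr798 held 5 and 4 (median 0.0212).

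These counts describe the order of the genes and were not tested, and they depend on the scale and the block. With the OR total, the run from Olfr799 to Olfr812 held 5 higher genes and 3 lower ones (Olfr801, Olfr807 and Olfr809), and the other runs, in the order of the chromosome, held 1 and 5, 4 and 6, and 0 and 8. With the replicate block it held 10 higher genes and 1 lower one, Olfr801. Relative to all genes, the median of the run from Olfr799 to Olfr812 was 0.0332 while those of the other runs were -0.672, -0.841 and -1.53, in the order of the chromosome. Calls of both kinds were found on both strands, with 9 higher and 5 lower among the 24 genes on the plus strand and 13 and 4 among the 32 on the minus strand. The plot of change by position shows the runs.

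**Figure D3:**
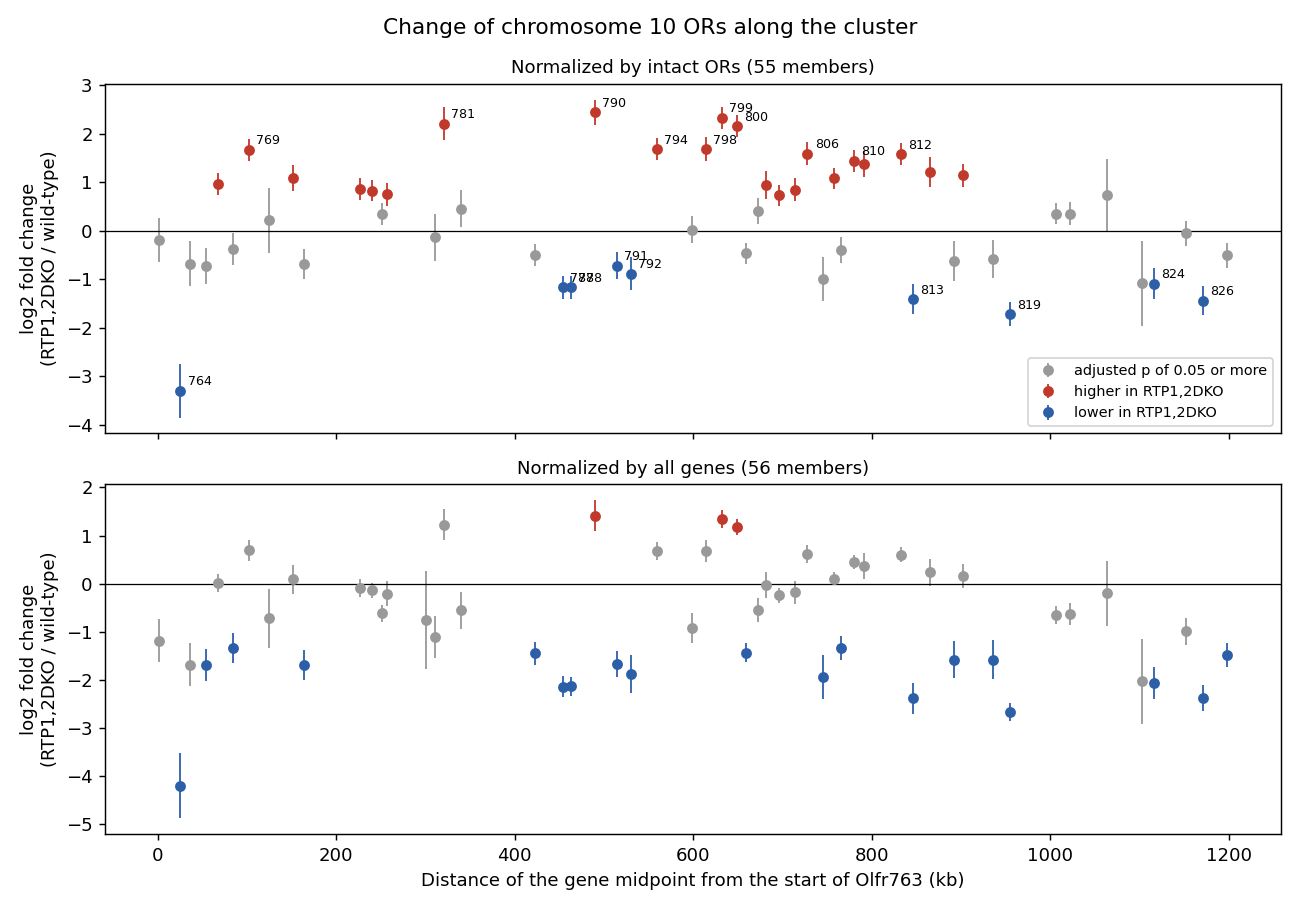
Log2 fold change (RTP1,2DKO over wild-type, bars for the SE) by distance in kb from the start of Olfr763, normalized by intact ORs above and by all genes below. The stretch from Olfr799 to Olfr812 holds 10 red points and no blue one in the upper panel (5 higher and 3 lower genes with the OR total, which is not drawn), and Olfr773, which had no wild-type count, is not drawn.

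Direct neighbours could change in opposite directions. Of 55 consecutive pairs, both genes were called in 15, with 8 pairs both higher, 2 both lower and 5 opposite. With the OR total these counts were 2, 9 and 10, and with the replicate block 8, 4 and 7. The opposite pairs were Olfr788 with Olfr790, Olfr790 with Olfr791, Olfr792 with Olfr794, Olfr812 with Olfr813, and Olfr813 with Olfr814. Such pairs can be compared as the ratio of their counts within each mouse, which no scaling between mice can alter. The genes of a pair differ in length, so only the change of a ratio is compared. The pairs were chosen by their calls, so the ratios give the size of a change and are no further support for it.

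The ratio of Olfr790 to Olfr788 was 0.218, 0.354 and 0.127 in wild-type mice and 2.54, 3.33 and 2.65 in RTP1,2DKO, a 13.2-fold rise of the geometric mean. That of Olfr812 to Olfr813 was 2.72, 1.88 and 2.03 against 15.1, 15.0 and 24.2, an 8.09-fold rise. Olfr813 is flanked on the other side by Olfr814, which had 40.8, 37.0 and 46.4 OR-normalized counts in wild-type and 79.6, 103.1 and 103.2 in RTP1,2DKO (1.21 ± 0.31, adjusted p = 0.0007, not called with the OR total at 0.42). Only 55.02% of the words of Olfr814 were unique, and its change among ORs turned slightly negative with its most abundant transcript. Its relative Olfr815 (95.89% identical) had 40.0, 80.4 and 69.8 estimated counts in wild-type and 23.6, 21.8 and 21.1 in RTP1,2DKO. The division of reads between Olfr814 and Olfr815 is therefore uncertain. The ratio of Olfr814 to Olfr813 went from 0.486, 0.344 and 0.344 to 2.26, 1.77 and 3.61, without overlap. Olfr813 was lower on every scale used, while Olfr812 and Olfr814 were not called relative to all genes (adjusted p = 0.067 and 0.84).

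Sequence relatives behaved in both ways too. Of the 24 pairs with at least 90% identical coding sequence, both genes were called in 7, of which 5 were both higher, none were both lower and 2 were opposite. The median absolute difference in log2 fold change was 0.957 over the 22 such pairs with both genes tested and 1.24 over the 1463 other pairs. Both medians include pairs with Olfr773, which had no count in any wild-type mouse. Pairs share genes and near-identical pairs share reads, so these medians are descriptive.

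For Olfr799 and Olfr781, whose stretches are printed above, the ratio within a mouse was 4.22, 6.28 and 5.28 in wild-type and 5.95, 5.81 and 5.43 in RTP1,2DKO. The ranges overlapped. Olfr774 and Olfr775, at 92.04% identity, likewise had overlapping ratios of 0.528, 0.4 and 0.431 against 0.449, 0.416 and 0.54. Olfr810 and Olfr816 overlapped as well, with 2.87, 2.94 and 3.55 against 2.78, 4.96 and 4.06.

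For the pairs with opposite calls a change of the ratio restates the calls and is given for its size. For Olfr798 and Olfr792 the ratio was 1.27, 1.29 and 0.921 in wild-type mice and 12.9, 7.42 and 4.94 in RTP1,2DKO, a 6.8-fold rise between genes that are 95.07% identical. For Olfr774 and Olfr787 it was 1.19, 0.866 and 1.13 against 4.77, 3.0 and 5.82, a 4.15-fold rise. Neither pair overlapped between groups. Olfr774 itself was not called with the OR total (0.07) or with its most abundant transcript alone (0.57). Relatives that both increased could still differ in degree, since the ratio of Olfr800 to Olfr777 (96.79% identical) went from 0.62, 0.647 and 0.826 to 1.39, 3.05 and 1.63.

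**Figure D4:**
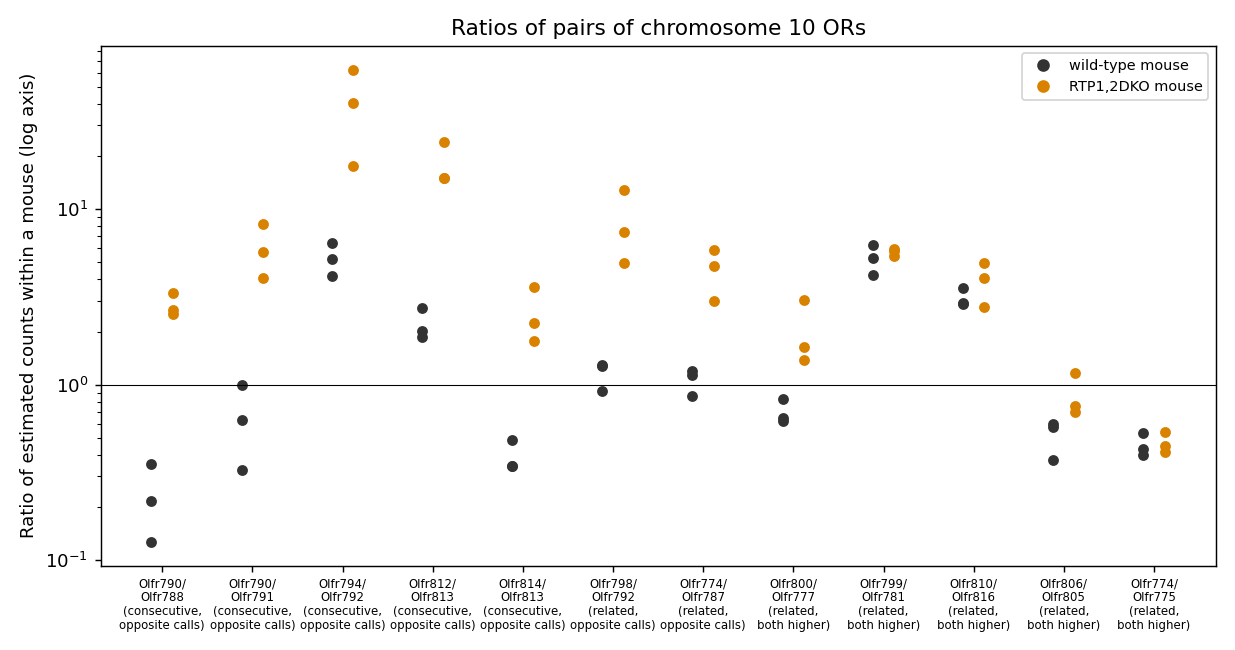
Ratio of estimated counts of 12 pairs of chromosome 10 ORs within each mouse (log axis), with a point per mouse. The 7 pairs with opposite calls on the left lie higher in RTP1,2DKO than in wild-type without overlap, while the ratios of Olfr799 to Olfr781, Olfr810 to Olfr816 and Olfr774 to Olfr775 overlap.

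The genes just outside the cluster did not pass the test. None of the 16 protein-coding genes on either side (10 from Tmem198b to Mettl7b and 6 from Neurod4 to Vmn2r87) rose or fell by edgeR's quasi-likelihood test over all genes or by DESeq2, and 3 had an unadjusted p under 0.05. Of 28 genes for OR transport, odorant signaling and OR choice, 12 fell and none rose, beside 3.15% of all genes lower. Of the 12, Rtp1 and Rtp2 are the deleted genes, and all others but Reep1 and Ric8b are also mature OSN markers counted above. They included Adcy3, the adenylyl cyclase that makes cAMP after an odorant binds (-1.41 ± 0.13, adjusted p = 4.8e-05), Gnal, the G protein subunit that couples ORs to it (-0.94 ± 0.17, adjusted p = 0.0053), and Cnga2, a subunit of the cAMP-gated channel (-1.05 ± 0.14, adjusted p = 0.00062). Lhx2, Ldb1 and Ebf1, transcription factors and a cofactor that act at OR enhancers, had log2 fold changes of 0.19, 0.04 and 0.08 and did not pass the test.

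Other OR clusters had other values on the same OR scale. The neighbouring numbers on chromosome 9, Olfr828 to Olfr870, had 0 of 28 genes higher and 9 lower by edgeR's quasi-likelihood test, with 11 at an unadjusted p under 0.05 in either direction, and 1 higher by DESeq2. Their median log2 fold change was -0.554. The larger chromosome 9 cluster from Olfr871 to Olfr985 had 17 of 77 higher and 26 lower (median -0.199). With the replicate block the first had 1 higher and 10 lower and the larger 16 and 24. All intact ORs outside the chromosome 10 cluster had 292 of 1023 higher and 270 lower, or 28.5% and 26.4%. These values depended on the scale too. With the OR total, Olfr828 to Olfr870 had 0 higher and 17 lower (median -1.34). Olfr871 to Olfr985 had 7 and 36 (median -0.994), and the intact ORs outside the chromosome 10 cluster 167 and 494, or 16.3% and 48.3%. These counts stand side by side, and no test of the difference between clusters was made.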

How the data were processed

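RNA-Seq of olfactory tissue from 3 wild-type and 3 RTP1,2DKO mice was analysed. The authors ran kallisto (version not given in the sources used here) against mouse transcripts of build mm10, as named in the submitters' processing notes, and deposited estimated counts, effective lengths and TPM per transcript for each mouse. The labels name a stranded KAPA kit for the libraries. The deposited TPM values were used only for an alternative to the share of OR counts.

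For each gene, the estimated counts of its transcripts were added up and, for the tests, rounded. Kallisto divides reads among similar transcripts by estimation, so counts of close relatives are not independent. FPKM was computed here from the deposited estimated counts, effective lengths and totals. Total counts of 31125410 to 41636996 per mouse left the median cluster gene with 79.98 to 172.1 counts. The SE of a fold change is its absolute size divided by the square root of the F statistic of its quasi-likelihood test. It restates that test and is no separate measure of precision. Positions, gene types and coding sequences came from GENCODE M21 (GRCm38), which may differ from the annotation the authors used. Olfr764 and Olfr766 carry pseudogene-style names in that annotation but are typed there as protein coding, and they were counted as intact. Intact ORs were genes named Olfr plus a number, without those the annotation types as pseudogenes. A gene in this number range is not reported here.

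The groups were compared in R 4.3.3 by the quasi-likelihood test of edgeR 4.0.16 with median-of-ratios size factors (DESeq2 1.42.0), after dropping genes without a rounded count of 1 in any mouse, and adjusting by Benjamini-Hochberg at 0.05, once over all 22152 genes and once over the 1078 intact ORs tested. The fits were tested on simulated data. There the fit over all genes made more false calls than the adjustment allows and the fit over intact ORs did not. The choice of OR scale, which shifted the median log2 fold change of ORs by -0.781, was not tested there. A share of changed ORs as large as the 593 of 1078 called in the mice was not tested either. P-values rest on the spread between 3 mice per group, which edgeR moderates with the spread shared over all genes of a fit. They do not measure the spread of each gene's own mice alone. Summaries used Python 3.11.15, numpy 2.4.6 and pandas 2.3.3. Coding sequences were aligned end to end, and words of 31 bases were compared with all transcripts of GENCODE M21.

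The members and gene lists were chosen with earlier results of these data known. Named genes were the 10 with the largest significant increase and decrease among ORs (9 decreased) whose mean count was 10 or more, the 5 highest and 3 lowest by wild-type FPKM, the genes that rose relative to all genes, and consecutive pairs with opposite calls. Related pairs, and other members named for losing or gaining a call, were named after their values were seen. Alternatives were TMM factors, a filter on low counts, DESeq2's Wald test, the replicate block, leaving out each mouse, the most abundant transcript only, adjustment over ORs, and other OR size factors. Same-numbered mice correlated in their deviations from the group means by 0.14, 0.177 and 0.101 over 18156 genes (0.184, 0.119 and 0.004 over 960 intact ORs). Differently numbered mice correlated by -0.217 to 0.0902 and, over intact ORs, by -0.152 to 0.0232. Replicate 3 thus did not stand out as a pair among ORs. The numbers were still taken to pair the mice, which the methods describe as littermates. The main fits leave this pairing out, and the replicate block takes it in.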

Additional observations from a re-analysis of the deposited data

How the results depend on the processing

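Relative to all genes, where 3 cluster genes rose and 19 fell, DESeq2 gave 6 that rose and 22 that fell (0.975% and 4.03% of all genes), the replicate block 5 and 20, and adjustment over intact ORs only 10 and 27 (11.7% and 50.5% of ORs). With the most abundant transcript of each gene only, edgeR's quasi-likelihood test called 0 higher and 4 lower (0.0587% and 0.718% of all genes), with 20 at an unadjusted p under 0.05 in either direction. Leaving out each mouse gave 2 to 4 higher and 15 to 18 lower, and medians of -0.783 to -0.536. Among ORs, where 22 were higher and 9 lower, the most abundant transcript gave 6 higher and 6 lower (12% and 10.2% of ORs), and scaling to the total OR count gave 10 higher and 22 lower. The median log2 fold change of 0.348 became -0.426 with the total OR count, 0.303 with TMM factors and 0.217 with the most abundant transcript. Leaving out each mouse gave 21 to 22 higher, 8 to 10 lower and medians of 0.218 (without RTP1,2DKO replicate 2) to 0.424 (without RTP1,2DKO replicate 3). The difference in the share of OR counts, -0.208 percentage points, was -0.0658 with deposited TPM, and -0.389 to -0.0106 without a mouse. Of 645 values of named genes under these alternatives, 584 kept their direction and side of the threshold, 34 lost the call, 18 gained it and 9 turned. The 9 were, relative to all genes, Olfr774 without RTP1,2DKO replicate 2 (0.05) and without wild-type replicate 1 (0.0527, the lowest without a mouse being -0.254), Olfr822 without wild-type replicate 1 (0.17, the lowest being -0.443), and Olfr810 (-0.0529) and Olfr814 (-0.814) with the most abundant transcript. Among ORs they were Olfr820 (-0.437) and Olfr822 (-0.0397) with the total OR count, and Olfr814 (-0.0245) and Olfr822 (-0.186) with the most abundant transcript. Only that of Olfr814 among ORs was called with all mice and transcripts. For the cluster genes, the replicate block changed no call other than those given beside the results. The causes of these changes were not tested. Depth limits the genes with few counts, such as Olfr764 in RTP1,2DKO, Olfr773 and Olfr822.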
